A study of Mus musculus with 12 samples.

Results

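Il34 spinous keratinocytes were suprabasal cells of mouse paw epidermis chosen for holding the Il34 transcript and for having few or no UMIs of chosen genes of the layers above and beside them. They were 17399 of the 125515 cells that passed the filter, or 13.9%, and 29.2% of the 59573 cells in which Krt1 and Krt10 together made up at least 1% of the unique molecular identifiers (UMIs, each a counted transcript). A cell was a member when it had 500 to 6000 genes, at most 5% mitochondrial UMIs, Krt1 and Krt10 at 1% of UMIs or more, at least 1 Il34 UMI and no Serpinb3a UMI. It also needed fewer than 3 Krt9 UMIs, genes whose names start with Lce1 under 0.5% of UMIs, fewer than 3 UMIs in each of 2 sets of cell cycle genes (Hist1h1b, Hist1h1a, Pclaf and Esco2; Ube2c, Cenpf, Ccnb1 and Cdc20), and no UMI of Cd74 or Cd3e. Members were thus chosen by the measured counts of these transcripts, and their levels beside other cells are given as description, without a test.

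The study asked if Langerhans cells, immune cells of the epidermis, have a part in neuropathic pain in diabetes. It used mice on a high-fat diet as a model and profiled single cells of their hind paw epidermis. C57BL/6J wild-type mice of both sexes were fed a regular diet (RD, 11% fat) or a high-fat diet (HFD, 42% fat) for 10 weeks, starting at 6 to 8 weeks of age, and received no drug. At 16 to 18 weeks the epidermis of the glabrous hind paw was freed with Dispase and dissociated with TrypLE, and each mouse gave 1 droplet library (10x Genomics 3′ v3.1). Each diet was given to 3 males and 3 females, 1 library each.

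Spinous keratinocytes are the cells just above the basal layer: they stop dividing, replace the keratins Krt5 and Krt14 with Krt1 and Krt10, and are bound together by many desmosomes before they build the cornified barrier. Il34 is a secreted ligand of the receptor Csf1r, and keratinocyte Il34 is known to maintain Langerhans cells, the resident immune cells of the epidermis. Mt4 is a metallothionein of stratified epithelia, and its relatives Mt1 and Mt2 bind zinc and copper and are induced by metals, glucocorticoids and oxidative stress. Gsta2 is a glutathione S-transferase, and Endou is an endoribonuclease.

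Il34 (ENSMUSG00000031750) lies on the reverse strand of chromosome 8 at chr8:110741829-110805924 (GRCm38). Mt4, Mt2 and Mt1 lie on the forward strand of that chromosome, at chr8:94137197-94139031, chr8:94172664-94173568 and chr8:94179082-94180327. Gsta2 is at chr9:78331018-78355788, Endou at chr15:97711015-97731339 and Krt10 at chr11:99385254-99389364, all on the reverse strand. Several diet results below concern the metallothioneins, so the 250 bases before their starts in RefSeq (GRCm38.p6, forward strand) are shown, at chr8:94178839-94179088 for Mt1, chr8:94172368-94172617 for Mt2 and chr8:94136954-94137203 for Mt4. Capitals mark matches to the core of the metal response element, TGCACNC or TGCGCNC, searched on both strands:
Mt1: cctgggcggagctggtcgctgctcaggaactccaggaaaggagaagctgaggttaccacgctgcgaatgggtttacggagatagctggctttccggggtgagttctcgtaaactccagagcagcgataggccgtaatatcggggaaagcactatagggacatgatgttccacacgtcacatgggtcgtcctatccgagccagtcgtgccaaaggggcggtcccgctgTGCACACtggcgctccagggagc
Mt2: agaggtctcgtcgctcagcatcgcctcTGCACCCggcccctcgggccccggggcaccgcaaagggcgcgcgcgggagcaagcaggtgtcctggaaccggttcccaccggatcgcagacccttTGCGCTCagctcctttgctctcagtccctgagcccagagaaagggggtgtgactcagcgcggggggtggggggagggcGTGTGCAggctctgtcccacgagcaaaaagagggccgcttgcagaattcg
Mt4: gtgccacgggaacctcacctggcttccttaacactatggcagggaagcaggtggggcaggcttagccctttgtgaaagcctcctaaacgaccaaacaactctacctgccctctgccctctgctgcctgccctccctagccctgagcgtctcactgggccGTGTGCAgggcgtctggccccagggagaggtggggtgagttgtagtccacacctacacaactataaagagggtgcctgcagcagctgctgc
Mt2 held 3 matches, and Mt1 and Mt4 held 1 each. Of 32851 RefSeq promoters of this length, 7032 (21.4%) held at least 1 match and 415 (1.26%) held 3 or more. The window follows the outermost start of each gene, so elements near its other starts can lie outside it. A match describes letters only and is not evidence of binding.

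Each library held 134449247 to 194673581 UMIs and 6139 to 14977 cells that passed the filter, and the members summed to at least 14442245 UMIs in every mouse. The matrix headers named Cell Ranger 6.1.0 for the male libraries and 7.2.0 for the female libraries, so sex and counting software cannot be told apart. Of 137882 distinct barcodes, 2492 occurred in 2 or more libraries, at most 70 in any pair of libraries, and 38 were members in 2 or more libraries. The doublet score set aside a preset quota of cells per library, 9.42% of cells in all, and 7.90% of members were among them.

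Of the defining markers Krt10 is part of the rule, and Mt4, Gsta2 and Endou are not. Over the 12 mice Krt10 averaged 24510 ± 4191 CPM (UMIs scaled to a common total, mean ± SD over the mice of their summed cells) in members and 491 ± 69.3 CPM in basal keratinocytes, taken as cells with Krt1 and Krt10 under 0.5% and Krt5 and Krt14 at 1% of UMIs or more. Mt4 averaged 8687 ± 2091 CPM in members and 689 ± 294 CPM in basal cells. Gsta2 averaged 58.8 ± 5.56 CPM in members and 1.36 ± 0.436 CPM in basal cells. For Endou the values were 167 ± 38.5 and 8.74 ± 2.85 CPM. The Krt10 difference was set by the gates of both classes. For Mt4, Gsta2 and Endou the lowest member value lay above the highest basal value. They were chosen as markers on these data, and the gates part suprabasal from basal cells, so this is description only. These 3 markers did not separate members from other suprabasal cells: cells with a Serpinb3a UMI held 58.1 ± 4.67 CPM of Gsta2, 186 ± 30.6 CPM of Endou and 6711 ± 2390 CPM of Mt4. Mt4 had a UMI in 99.9% of members, Endou in 69.7% and Gsta2 in 47.7%. Basal cells were gated on Krt5 and Krt14, so these levels are given only for scale, Krt14 at 1097 ± 353 CPM in members against 16554 ± 2618 CPM in basal cells, and Krt5 at 277 ± 90.5 against 4847 ± 757 CPM.

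The transcripts most abundant in members described a working suprabasal keratinocyte. Krt10 was first with 2.45% of all UMIs, followed by Lgals7, a galectin of stratified epithelia, at 12741 ± 3452 CPM. Fabp5, the epidermal fatty acid binding protein, stood at 12550 ± 3174 CPM, and Krt2, an upper spinous keratin, at 11957 ± 1686 CPM. Ly6d, a surface protein of keratinocytes, stood at 11400 ± 1122 CPM and Mt4 at 8687 ± 2091 CPM, with Tpt1, Rplp0, Eef1a1 and Rpl13 of the translation machinery making up the rest of the top 10. Langerhans cell markers were low: 8 of the 9 Langerhans cell genes had a UMI in members, 5 averaged under 1 CPM, and the summed list lay between 8.74 and 14.1 CPM in the 6 males and between 9.93 and 15.5 CPM in the 6 females. Cells gated on Cd207 and Cd74 held at least 32316 CPM, and since the rule bars Cd74, which is on the list, and that gate requires it, the gap was set in part by the gates.

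Members differed little from spinous cells that passed the same rule with 0 Il34 UMIs (20580 cells). Of 5002 genes with at least 20 CPM in either class, 96.9% had a median ratio over the mice within 0.25 on the log2 scale. The genes with the lowest ratios included several of the cornified layers. The barrier precursor Flg averaged 84.5 ± 84.2 CPM in members and 589.7 ± 503 CPM in Il34-zero cells, its relative Hrnr 58.2 ± 51.6 and 492 ± 317 CPM, and loricrin (Lor) 224 ± 184 and 925 ± 626 CPM. Next after Hrnr and Flg, whose median log2 ratios were -3.42 and -2.88, came the corneodesmosome gene Cdsn at -2.77, the growth factor Ereg at -2.61, Wfdc12 at -2.39, Nccrp1 at -2.34, the cytokine Il1f6 at -2.29 and Crct1 at -2.28. Of 14 late differentiation genes at this level, 8 were lower in all 12 mice, as were 274 (5.48%) of all genes at this level, and 240 genes were higher in all 12. Genes higher in members moved less: the lipoxygenase Alox12e by 0.54, the phospholipase Pla2g4f by 0.41, the cystatin Stfa1 by 0.39 and the antiviral Oas1f by 0.38 on the log2 scale, with Cstdc5, Stfa3, Tmprss4, Bbox1, Robo1, Paqr3, Hs3st6 and Sdr16c6 making up the 12 highest. Il34-zero cells had a median of 10362 UMIs and members 13200 at all UMIs, and finding an Il34 UMI in a cell depends on its depth.

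At equal depth the order was similar. When every cell was thinned to 5000 UMIs, the median Flg level over the mice was 373 CPM in spinous cells with 0 Il34 UMIs, 60.6 CPM with 1, 36.8 CPM with 2 and 7.78 CPM with 3 or more. Hrnr was at 356, 44.2, 27.4 and 7.36 CPM in these 4 strata. Krt14 was at 1393, 1031, 827 and 722 CPM, whereas Mt4 kept to between 8332 and 8796 CPM. The strata held 31777, 8088, 1766 and 509 cells. The median levels of Flg and Hrnr were thus lower with 1 Il34 UMI than with 0, and lower again with 2. The stratum with 3 or more held 4 to 90 cells per mouse. Single mice ranged there from 0 to 44.4 CPM for both genes, so this last step was not read. For Krt14 the mean over mice was 896 CPM with 2 UMIs and 901 CPM with 3 or more, where single mice ranged from 80 to 3700 CPM, so no order was read between these last strata. The whole rule was applied after thinning, so cells that lost their Serpinb3a UMIs could enter these strata. In male RD replicate 1, Serpinb3a cells went from 1398 to 880 and spinous cells from 4824 to 5509. Serpinb3a cells averaged 1741 CPM of Flg with all UMIs, and their part in these strata was not tested.

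Cells with at least 1 Serpinb3a UMI and any Il34 count (9562 cells), which otherwise passed the rule, lay further away. Only 34.9% of 5202 genes were within 0.25 on the log2 scale of members. Serpinb3a cells held more Krt10, 40971 ± 5540 CPM, more Krt2, 21050 ± 3234 CPM against 11957 ± 1686 CPM in members, and more Flg, 1741 ± 892 CPM. Late differentiation genes were lower in members in all 12 mice for 15 of 16 (median log2 ratio -2.94), barrier lipid genes for 19 of 21 (median -1.03), cholesterol genes for 21 of 21 (median -0.79), early differentiation genes for 11 of 14 (median -0.48) and desmosome genes for 10 of 12 (median -0.47). Of all 5202 genes, 25.5% were lower in members in all 12 mice. The largest ratios against Serpinb3a cells were Hrnr at -5.30, the antimicrobial Wfdc21 at -5.17, Wfdc12 at -4.84, Ereg at -4.67, Nccrp1 at -4.63 and Flg at -4.57. Among the genes highest in members were the kinase Dapk2 at 2.13, the IGF binding protein Igfbp2 at 1.82, Mt2 at 1.79, Ly6a at 1.75 and the hemidesmosome linker Dst at 1.73. Mt1 averaged 1617 ± 623 CPM in members and 760.1 ± 297 CPM in Serpinb3a cells, and Mt2 782 ± 229 and 252 ± 97.4 CPM.

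Cells with 3 or more Krt9 UMIs (4180 cells), Krt9 being the keratin of palms and soles, were also close, with 77.6% of 5034 genes within 0.25. They could have any Il34 and any Serpinb3a count and otherwise passed the rule, so cells with Serpinb3a UMIs are among them. Higher in members were Stfa1 at 2.46, Skint1, of a family that selects epidermal T cells, at 2.44, Tmprss4 at 2.43, Stfa3 at 2.23, and Krt2 and the homeobox gene Barx2 at 1.93 each. Lower in members were the hedgehog-binding gene Hhip at -4.91, Wfdc18 at -3.04, the IGF binding protein Igfbp5 at -3.01, the carbonic anhydrase Car2 at -2.97, the Wnt ligand Wnt5a at -2.90 and Wfdc12 at -2.89. All are median log2 ratios over 12 mice. Mt4 was higher in Krt9 cells, at 10657 ± 2788 CPM, than its member level above.

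**Figure D1:**
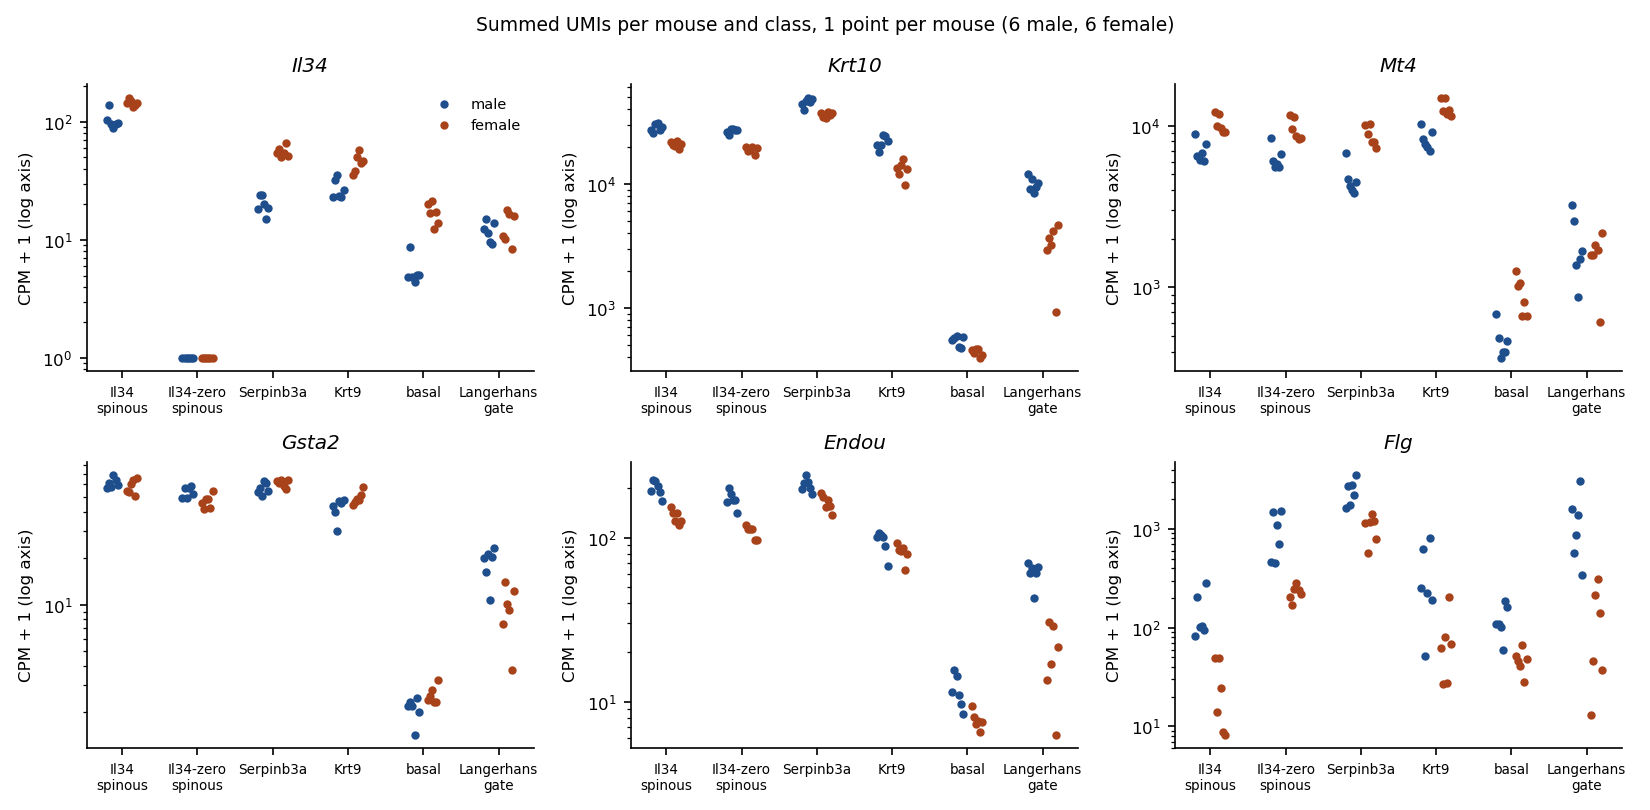
Levels of 6 genes (CPM plus 1, log axis) in 6 classes of cells, 1 point per mouse with males and females in separate colours. Mt4, Gsta2 and Endou were high in members and low in basal cells, as was Krt10, which both gates use, whereas Flg averaged 84.5 CPM in members and 1741 CPM in Serpinb3a cells.

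Il34 itself was sparse. Among members 9546 cells (54.9%) held 1 Il34 UMI, 4369 (25.1%) held 2, 3484 (20.02%) held 3 or more, and the highest count was 14. At 5000 UMIs per cell, 14.8% to 19.5% of spinous cells with any Il34 count had an Il34 UMI in the 6 males and 32.4% to 36.2% in the 6 females. Without thinning the shares were 28.9% to 43.98% and 50.5% to 64.4%, at a median depth of 12637 UMIs in males and 12940 in females (median of the mice). Cells in the Langerhans gate, which should lack Il34, gave 1.19% to 7.22% in males and 0.350% to 4.46% in females at 5000 UMIs, and their median depth before thinning was 4906 and 6719 UMIs. Basal cells gave 1.52% to 3.99% in males and 5.02% to 8.24% in females. The spinous shares thus lay above the Langerhans and basal shares of the same sex in all 12 mice. Other suprabasal cells were nearer. Serpinb3a cells gave 5.39% to 9.07% in males and 17.4% to 23.9% in females at 5000 UMIs. Krt9 cells gave 7.2% to 15.1% and 12.9% to 24.3%, and in males this range overlapped the spinous range.

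The members spanned a gradient of keratin content. In the stratum with Krt1 and Krt10 at 1 to 2% of UMIs (4915 cells) the median level over mice was 3499 CPM for Krt14 and 940 CPM for Krt5. It fell to 632 and 139 CPM in the 2 to 4% stratum (9691 cells), to 288 and 72.7 CPM at 4 to 8% (2726 cells) and to 69.8 and 14.03 CPM at 8% or more (67 cells, 1 to 18 per mouse). The desmogleins moved apart, the median of Dsg3 of the lower layers going from 91.8 to 29.2 CPM and that of Dsg1a of the upper layers from 418 to 1551 CPM between the first and the last stratum. Endou went from 80.1 to 221 CPM and Mt4 from 7299 to 10736 CPM, whereas Mt2 went from 1222 to 366 CPM. The stratum variable is itself part of the rule. Members of the 1 to 2% stratum were 9.62% to 21.3% of members in the males and 31.5% to 47.4% in the females, and 8.53% of members had Krt5 and Krt14 at 0.5% of UMIs or more. Just inside the keratin limit, at 1 to 1.2% of UMIs, were 623 members, and 457 cells that met the rest of the rule lay just outside it at 0.8 to 1%.

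**Figure D2:**
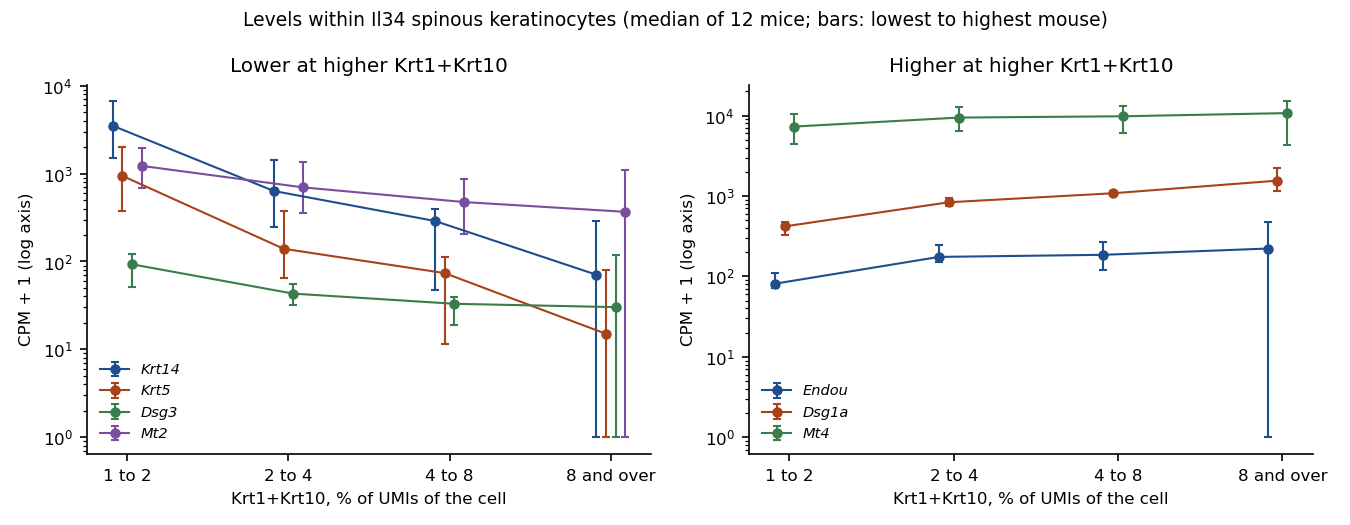
Median level over 12 mice (CPM, log axis, bars from the lowest to the highest mouse) in members split by Krt1 plus Krt10 share of UMIs. The medians of Krt14, Krt5, Dsg3 and Mt2 were lower in the last stratum than in the first (left), and those of Endou, Dsg1a and Mt4 were higher (right), with 67 cells in the last stratum.

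The first diet question was whether HFD changed how many such cells there were. Members made up 11.1%, 10.2% and 13.2% of cells in the 3 RD males and 14.2%, 11.5% and 11.6% in the 3 HFD males. In females they made up 17.4%, 13.6% and 16.7% on RD and 16.8%, 16.3% and 15.8% on HFD. The diets overlapped in both sexes. The difference of HFD from RD was 0.911 percentage points in males (12.4 ± 1.52% against 11.5 ± 1.56%, exact two-sided permutation p = 0.5) and 0.436 points in females (16.3 ± 0.504% against 15.9 ± 2.06%, exact p = 0.9), with 0.1 the smallest p that 3 against 3 mice allow. Among female cells with Krt1 and Krt10 at 1% or more, members were 36.3 ± 5.45% on RD and 41.5 ± 4.11% on HFD (5.13 points, exact p = 0.3), while those cells were 43.8 ± 1.17% of all cells on RD and 39.6 ± 3.42% on HFD, without overlap (exact p = 0.1). With cells thinned to 5000 UMIs the male difference was -1.33 points (exact p = 0.2), opposite in sign. Median member depth was 12197, 7999 and 14064 UMIs in RD males and 17092, 13560 and 14123 UMIs in HFD males.

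Il34 was also summed over all spinous cells that met the rest of the rule, whatever their Il34 count, so that this sum does not depend on the Il34 limit. RD and HFD overlapped in both sexes. It averaged 41.5 ± 4.99 CPM in RD and 39.6 ± 2.91 CPM in HFD males (exact permutation p = 0.6, n = 3) and 95.3 ± 5.35 and 94.7 ± 4.61 CPM in RD and HFD females (exact p = 0.8). Between the sexes the values did not overlap, 40.6 ± 3.80 CPM over 6 males and 94.99 ± 4.48 CPM over 6 females (exact permutation p = 0.00216, the smallest possible). The share of members was 11.96 ± 1.47% in males and 16.1 ± 1.36% in females (exact p = 0.00433), and 7.46 ± 1.23% and 10.9 ± 0.660% at 5000 UMIs, without overlap (exact p = 0.00216). Among cells with Krt1 and Krt10 at 1% or more it was 22.4 ± 2.69% and 38.9 ± 5.15% (exact p = 0.00216). That denominator differed too, at 53.4% of cells in males and 41.7% in females. Sex and counting software cannot be told apart in these values.

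**Figure D3:**
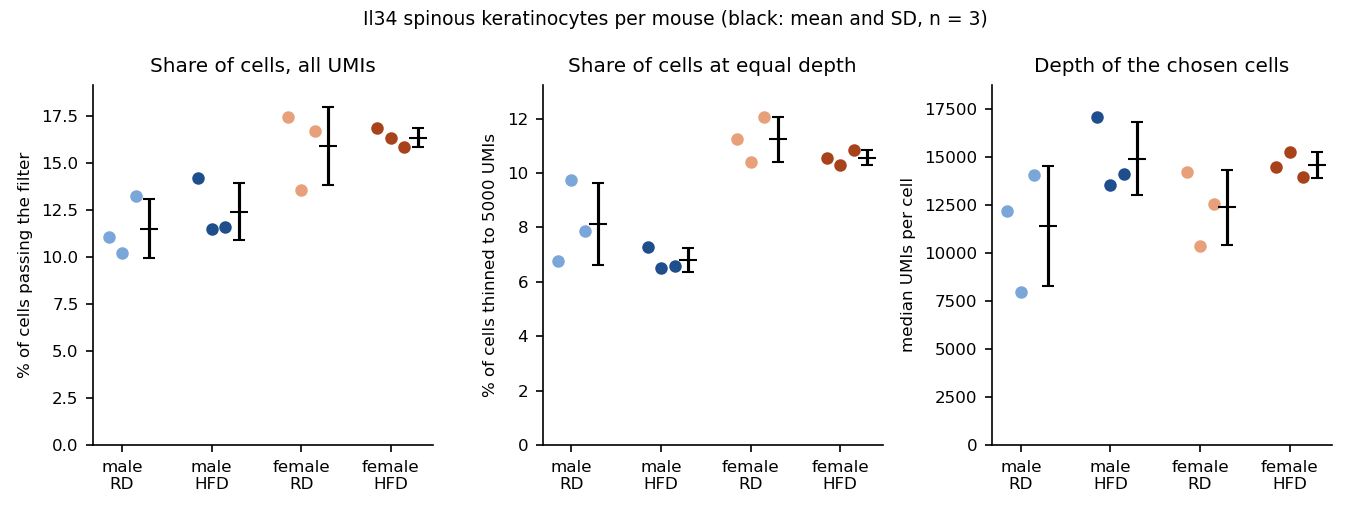
Share of members among all cells (left, %), the same share after thinning each cell to 5000 UMIs (middle, %) and median UMIs of members (right), 1 point per mouse with the mean and SD of each group of 3. RD and HFD overlapped within each sex in all cells, and after thinning the females lay at 10.3% to 12.05%, above the males at 6.52% to 9.74%.

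In females some transcripts of these cells differed between the diet groups. Summed per mouse and tested with edgeR's quasi-likelihood test and Benjamini-Hochberg adjustment, 207 of 13288 genes (1.56%) differed, 107 higher on HFD (0.805%) and 100 lower (0.753%), with a median fold of 1.38 and 13 genes past 2-fold. The RD and HFD females did not overlap in any of the 207, as in 24.7% of all genes tested. The metallothioneins and cholesterol genes that passed fell on HFD, and the fatty acid transporter family gene Slc27a3 rose. The count rested on few mice: it was 0 without RD replicate 1 (1882 genes at an unadjusted p under 0.05), 22 without RD 2, 23 without RD 3, 128 without HFD 1, 688 without HFD 2 and 28 without HFD 3. With the rule applied after thinning to 5000 UMIs it was 27, of which 25 were among the 207. CPM of single mice given with edgeR tests are scaled by edgeR's TMM factors within each fit.

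Mt1 stood at 1423, 1129 and 1318 CPM in the RD females and 848, 972 and 859.6 CPM in the HFD females. All HFD values lay below all RD values, a log2 difference of -0.53 ± 0.09 (SE; edgeR adjusted p = 0.0250). Mt2 stood at 840.3, 693 and 760.4 CPM in the RD females and 439.7, 581 and 453 CPM in the HFD females, a difference of -0.64 ± 0.11 (edgeR adjusted p = 0.0249), again without overlap. Mt4, the marker of the members, stood at 12102, 10152 and 12037 CPM on RD and 9915, 8804 and 9141 CPM on HFD. Its groups did not overlap, but the difference of -0.30 ± 0.09 did not pass (edgeR adjusted p = 0.0928). After thinning, Mt1 and Mt2 differed by -0.57 and -0.62 (edgeR adjusted p = 0.0167 and 0.0275). Mt1 passed in 10 of 14 alternatives (edgeR or DESeq2 adjusted p 4.32e-07 to 0.120), and Mt2 passed in 9 of 14 alternatives (edgeR or DESeq2 adjusted p 1.47e-09 to 0.118). With a mouse left out Mt1 passed in 2 of 6 fits and Mt2 in 1 of 6. Of the 21 metallothionein and glutathione genes tested these were the 2 that passed, both lower, beside 0.753% of all genes called lower, with a list median of -0.16 beside 0.00 for all genes. The marker Gsta2 differed by 0.08 ± 0.11 (edgeR adjusted p = 0.739) and Endou by -0.13 ± 0.09 (edgeR adjusted p = 0.471).

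Slc27a3, a member of the fatty acid transport protein family, was the clearest single change. It stood at 9.76, 8.59 and 8.85 CPM in the RD females and 23.3, 19.1 and 28.9 CPM in the HFD females, so that each HFD female lay well above each RD female, by 1.38 ± 0.14 on the log2 scale (edgeR adjusted p = 0.00539). It passed in 13 of 14 alternatives (edgeR or DESeq2 adjusted p 2.19e-20 to 0.0501), the exception being the fit without RD replicate 1. The zinc finger gene Plagl1 stood at 3.43, 2.46 and 2.48 CPM in the RD females and 6.64, 5.80 and 7.58 CPM in the HFD females (1.25 ± 0.17, edgeR adjusted p = 0.0129; 0.96 after thinning, edgeR adjusted p = 0.128). Aknad1 stood at 4.47, 2.57 and 2.64 CPM in the RD females and 7.83, 8.80 and 5.85 CPM in the HFD females (1.21 ± 0.22, edgeR adjusted p = 0.0271; 1.52 after thinning, edgeR adjusted p = 0.0213). The 3 HFD mice lay above the 3 RD mice in both. A pair of signalling genes were also higher at low levels, the Wnt antagonist Nkd2 (0.952, 1.15 and 1.44 CPM in the RD females and 2.46, 2.88 and 2.44 CPM in the HFD females, edgeR adjusted p = 0.0307) and the BMP ligand Bmp8a (2.11, 2.67 and 2.32 CPM in the RD females and 4.79, 4.87 and 5.41 CPM in the HFD females, edgeR adjusted p = 0.0129; 1.33 on the log2 scale after thinning, edgeR adjusted p = 0.0979). The gene 2310015K22Rik held 1, 3 and 3 UMIs on RD and 23, 11 and 20 UMIs on HFD (edgeR adjusted p = 0.0361). With a mouse left out Slc27a3 passed in 5 of 6 fits and the other genes here in 1 to 3 of 6.

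Wfdc21, a secreted antimicrobial of the upper layers, stood at 21.8, 14.6 and 28.97 CPM in the RD females and 9.29, 10.8 and 8.87 CPM in the HFD females (-1.18 ± 0.20, edgeR adjusted p = 0.0249), and at -0.85 after thinning it did not pass (edgeR adjusted p = 0.335). It passed in 9 of 14 alternatives (edgeR or DESeq2 adjusted p 1.71e-14 to 0.335). The cornified envelope gene Sprr2b stood at 2.73, 2.51 and 2.68 CPM in the RD females and 1.13, 0.545 and 0.576 CPM in the HFD females (-1.77 ± 0.27, edgeR adjusted p = 0.0180; -1.28 after thinning, edgeR adjusted p = 0.222). Its relative Sprr2d held 66, 60 and 24 UMIs on RD and 16, 13 and 6 UMIs on HFD (edgeR adjusted p = 0.0316). HFD lay below RD in all of these. Sprr2 genes are close copies whose reads can be split between them, so their single values are uncertain. The chemokine Ccl6, made by myeloid cells, held 12, 12 and 15 UMIs on RD and 3, 1 and 2 UMIs on HFD (edgeR adjusted p = 0.0249). The follicular defensin Defb6 stood at 50.6, 31.2 and 49.2 CPM in the RD females and 26.8, 14.7 and 22.1 CPM in the HFD females (-1.04 ± 0.21, edgeR adjusted p = 0.0378). After thinning it was at -0.60 (edgeR adjusted p = 0.631). It was 1 of 6 markers of migratory or follicular keratinocytes to pass, beside 0.753% of all genes called lower. Whether such cells contribute was not tested. With a mouse left out Defb6 passed in 3 of 6 fits, and Wfdc21, Sprr2b, Sprr2d and Ccl6 in 2 of 6 each. Median depth of members was 10360 to 14262 UMIs in RD and 13989 to 15307 UMIs in HFD females. The rule of 0 Serpinb3a UMIs depends on depth. Of the 100 genes lower on HFD, 46 had a lower level in members than in Serpinb3a cells. That was 46%, beside 23.4% of the 107 higher genes and 26.1% of all genes tested. The part of depth in these values was not tested.

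The lipid lists moved little. Srebf2, the transcription factor that drives cholesterol genes, stood at 159.9, 164 and 155 CPM in the RD females and 136, 127 and 116 CPM in the HFD females (-0.34 ± 0.07, edgeR adjusted p = 0.0394). Of 21 cholesterol genes 2 passed, both lower, beside 0.753% of all genes called lower, and the list median was -0.15. Fasn, the fatty acid synthase, stood at 64.04, 57.6 and 54.4 CPM in the RD females and 49.04, 40.4 and 41.9 CPM in the HFD females (-0.42 ± 0.09, edgeR adjusted p = 0.0418), 1 of 20 genes of fatty acid use. None of 21 genes on the barrier lipid list and none of 17 on the late differentiation list passed in either direction. Sprr2b and Sprr2d, given above, were not on that list. Srebf2 and Fasn differed by -0.34 and -0.46 after thinning but did not pass (edgeR adjusted p = 0.0852 and 0.0996), where the lists had 0 calls of 21 and 0 of 18 (1427 genes of all tested were then at an unadjusted p under 0.05). With a mouse left out Srebf2 and Fasn each passed in 2 of 6 fits.

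Single genes passed in 3 other lists, beside 0.805% of all genes called higher and 0.753% called lower. The desmosomal cadherin Dsc1 stood at 161, 145 and 161 CPM in the RD females and 128, 110.2 and 125 CPM in the HFD females (-0.36 ± 0.08, edgeR adjusted p = 0.0414), 1 of 15 desmosome genes. The chaperone Hsp90aa1 stood at 258, 278 and 287 CPM in the RD females and 344, 334 and 339 CPM in the HFD females (0.31 ± 0.06, edgeR adjusted p = 0.0414), 1 of 18 immediate early and heat shock genes. Krt15, a basal keratin, stood at 43.98, 35.9 and 46.2 CPM in the RD females and 63.99, 58.98 and 56.7 CPM in the HFD females (0.51 ± 0.09, edgeR adjusted p = 0.0261), 1 of 7 basal markers, whose summed level lay at 1190 to 1459 CPM on RD and 1345 to 1457 CPM on HFD. Dsc1 was lower in each HFD female, and Hsp90aa1 and Krt15 higher. After thinning they differed by -0.39, 0.29 and 0.62 and none passed (edgeR adjusted p = 0.137, 0.141 and 0.235), and each passed in 1 of 6 fits with a mouse left out. The remaining lists, among them the 9 keratins tested, 14 early differentiation genes, 25 differentiation factors and Notch genes, 15 cytokines and 15 sensory mediators, held no call.

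**Figure D4:**
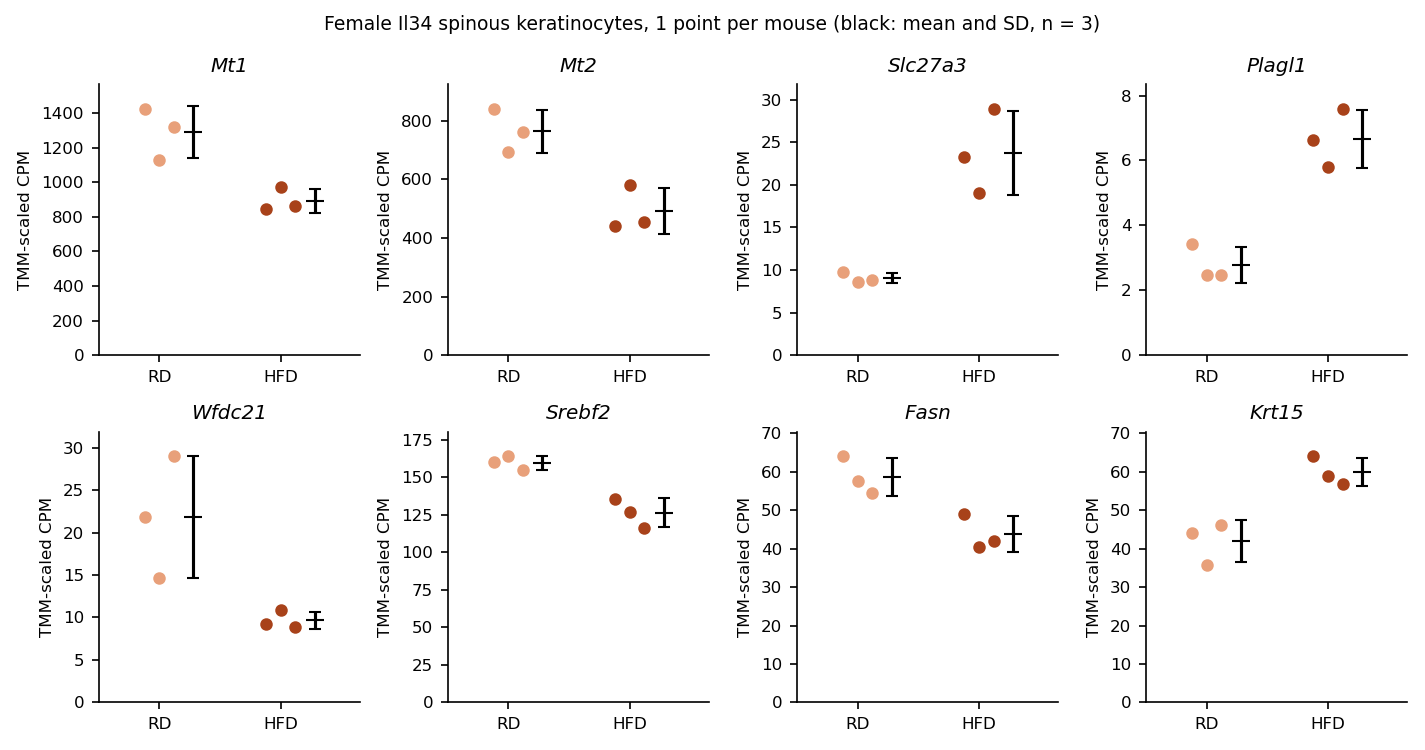
Levels (TMM-scaled CPM) of 8 genes in members of each female, RD and HFD side by side with the mean and SD of 3 mice. Slc27a3, Plagl1 and Krt15 were higher and Mt1, Mt2, Wfdc21, Srebf2 and Fasn lower in every HFD female.

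The same mice gave the neighbouring classes, so the values are set side by side and are not independent. In females edgeR called 108 genes (0.888%, higher in 0.501%) in Il34-zero spinous cells, 59 (0.508%) in Serpinb3a cells, 25 (0.228%, lower in 0.0638%) in Krt9 cells and 86 (0.597%) in basal cells. In the order Il34-zero, Serpinb3a, Krt9 and basal cells, the log2 difference of Slc27a3 was 1.52, 1.38, 1.60 and 0.82, past the edgeR threshold in each. Mt1 differed by -0.57, -0.60, -0.36 and -0.72 and Mt2 by -0.62, -0.74, -0.48 and -0.73, each past the threshold except in Krt9 cells. Mt4 differed by -0.39, -0.37, -0.25 and -0.64 and passed in Il34-zero and basal cells. Krt15 differed by 0.89, 1.43, 1.94 and 0.52, past the threshold in the first 3 classes. Wfdc21 differed by 0.22, 0.16, -0.39 and -0.39 and passed in none of the 4. The mean of Slc27a3 thus lay above RD and those of Mt1 and Mt2 below RD in each class of the HFD females.

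In males the diet comparison of members gave almost no calls. Of all genes tested, 1 of 11235 (0.0089%) passed edgeR, 713 genes were at an unadjusted p under 0.05, and 14 were called by DESeq2, 7 in each direction. The gene was Dnase1l3, a secreted nuclease that degrades DNA of dying cells, at 27.9, 25.3 and 24.95 CPM in the RD males and 13.4, 15.9 and 13.7 CPM in the HFD males. All HFD males lay below all RD males, by -0.86 ± 0.10 (edgeR adjusted p = 0.0303). It did not pass after thinning, at -0.79 (edgeR adjusted p = 0.678), nor without RD replicate 1 or 3 or any of the 3 HFD replicates, and it passed in 7 of 14 alternatives (edgeR or DESeq2 adjusted p 1.48e-10 to 0.678). Without RD replicate 2, the shallowest library by members, 11 genes passed. Over all 12 mice, females included, Dnase1l3 averaged 120.2 ± 26.2 CPM in Serpinb3a cells and 15.4 ± 6.94 CPM in members.

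The next genes by p did not pass and are given as values. The water channel Aqp5 stood at 40.1, 42.6 and 45.9 CPM in the RD males and 28.1, 30.1 and 23.9 CPM in the HFD males (-0.65 ± 0.10, edgeR adjusted p = 0.201). The interleukin 1 receptor antagonist Il1rn stood at 32.4, 30.3 and 28.1 CPM in the RD males and 21.4, 18.9 and 21.2 CPM in the HFD males (-0.56 ± 0.09, edgeR adjusted p = 0.289). Aqp5 is also 1 of 6 sweat gland markers, which summed to 51.0 to 60.5 CPM in RD and 37.1 to 40.9 CPM in HFD male members. It was the only 1 of them at 20 CPM or more on average, so this sum largely repeats its own values. In Serpinb3a cells the 6 markers summed to 159 to 203 CPM in RD and 164 to 202 CPM in HFD males. The part of sweat gland cells was not tested. Gm42418, which overlaps a ribosomal RNA locus, stood at 7381, 6591 and 7854 CPM in the RD males and 13364, 14318 and 9894 CPM in the HFD males (edgeR adjusted p = 0.310), and the linker histone Hist1h1e at 69.3, 66.4 and 83.8 CPM in the RD males and 127, 108 and 100.1 CPM in the HFD males (edgeR adjusted p = 0.351). The groups did not overlap in any of these 4, as in 12.1% of all genes tested. Mitochondrial UMIs of members were also apart, at 3.03% to 3.31% in RD and 3.37% to 3.62% in HFD males.

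No gene of any list passed in males. Mt1 differed by 0.17, Mt2 by 0.26 and Mt4 by -0.04 on the log2 scale. Gsta2 differed by 0.17 ± 0.08 (edgeR adjusted p = 0.797) and Endou by -0.15 ± 0.10 (edgeR adjusted p = 0.854). The 21 cholesterol genes had a median of -0.24 beside 0.00 for all genes, with no call. Male RD and HFD cells of the 4 other classes gave no edgeR call either, with 705 genes at an unadjusted p under 0.05 in Il34-zero, 1184 in Serpinb3a, 578 in Krt9 and 727 in basal cells.

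Whether the diet effect differed between the sexes was tested by an interaction over all 12 mice. Slc27a3 passed, 1 of 13123 (0.00762%), with a difference of -1.66 ± 0.22 (male minus female, edgeR adjusted p = 0.0131). Its diet effect was -0.27 in males and 1.38 in females. It passed in 13 of 20 alternatives (edgeR or DESeq2 adjusted p 1.86e-15 to 0.335), and after thinning the difference was -1.28 (edgeR adjusted p = 0.335). Arrdc4, Zranb2, 2210016F16Rik and Abcf3 followed without passing. After thinning 1 gene was called, and it was Zranb2, with a difference of -1.24 (edgeR adjusted p = 0.0198), against -0.99 with all UMIs (edgeR adjusted p = 0.0565); it passed in 7 of 20 alternatives. The count moved with single mice, to 148 without male RD replicate 2, 23 without female HFD 2, 4 without male HFD 1, 3 without female RD 3 and 0 without male RD 3, male HFD 2, male HFD 3 or female RD 2. At an unadjusted p under 0.05 were 1495 genes, and DESeq2 called 98. The female decrease of Mt1 and Mt2 was not shown to differ from males by this test.

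Genes of the Il34 pathway and of the Langerhans cell niche were mostly low in members and none passed, of 12 tested in males and 14 in females. The receptor Csf1r averaged 0.276 ± 0.214 CPM in members and 463 ± 97.7 CPM in the Langerhans gate. The other ligand of that receptor, Csf1, averaged 2.44 ± 1.12 CPM. Tgfb1, which Langerhans cells need to stay in the epidermis, averaged 3.20 ± 0.770 CPM in members, 26.4 ± 2.61 CPM in basal cells and 103 ± 13.00 CPM in the Langerhans gate. Sdc1, a proteoglycan that binds Il34, stood at 403, 365 and 388 CPM in RD males and 388, 391 and 362 CPM in HFD males. In females it stood at 379, 385 and 359 CPM on RD and 375, 388 and 356 CPM on HFD. The diets overlapped in both sexes. Ptprz1, another receptor of Il34, stood at 2.75, 2.65 and 2.88 CPM in RD males and 1.64, 1.30 and 1.37 CPM in HFD males (-0.94 ± 0.21, edgeR adjusted p = 0.389). These values did not overlap, as in 12.1% of all genes tested in males, and the difference did not pass.

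The diet effect of members was then set against that of other spinous classes within each mouse, by an edgeR model with the mouse as a block and a term for class and diet. CPM in these comparisons are TMM-scaled over both classes together, so member values differ from those given above. In males the effect differed from that of Serpinb3a cells in 378 of 11619 genes (3.25%), 122 more toward HFD in members (1.05%) and 256 less (2.2%), with 1899 genes at an unadjusted p under 0.05. DESeq2 size factors in place of TMM gave 73 and 337. The diet effect on Mt1, Mt2 and Mt4 was the higher one in members, and that on Krt2, on 10 of 22 barrier lipid genes and on 9 of 21 cholesterol genes the lower one. Median depth of the Serpinb3a cells was 12266 to 20461 UMIs in RD and 19890 to 25027 UMIs in HFD males, and the rule of 0 Serpinb3a UMIs depends on depth. With both classes set after thinning to 5000 UMIs the count was 41, 20 higher and 21 lower, of which 34 were among the 378. It was 92 without RD replicate 1, 119 without RD 3 and 187 without HFD 2. Of the 256 lower genes 254 had a lower level in members than in Serpinb3a cells, as did 28.6% of all genes tested, and of the 122 higher genes 3 did.

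Mt1 stood at 2287, 1470 and 1790 CPM on RD and 1968, 1903 and 2402 CPM on HFD in members, and 1412, 849.8 and 1105 CPM on RD and 992, 920.4 and 1243 CPM on HFD in the other cells. The male diet groups overlapped within each class, but the change in members exceeded that in Serpinb3a cells by 0.27 ± 0.04 (edgeR adjusted p = 0.00224), and by 0.33 after thinning. Mt2 stood at 938, 642 and 768 CPM on RD and 823, 870.2 and 1125 CPM on HFD in members, and 449, 286 and 368 CPM on RD and 269, 270.5 and 452 CPM on HFD in the other cells, a difference of 0.44 ± 0.07 (edgeR adjusted p = 0.00341) and of 0.57 after thinning. Mt4 stood at 8297, 5933 and 5418 CPM on RD and 6368, 5678 and 7085 CPM on HFD in members, and 7391, 5013 and 4469 CPM on RD and 4449, 4366 and 4933 CPM on HFD in the other cells, a difference of 0.24 ± 0.04 (edgeR adjusted p = 0.00376) and of 0.30 after thinning. In Serpinb3a cells the HFD mean of each gene lay below its RD mean, whereas in members the HFD mean of Mt1 and Mt2 lay above it. All 3 passed in 9 of 9 alternatives, with edgeR adjusted p up to 0.0301 for Mt1, 0.0373 for Mt2 and 0.0453 for Mt4. Of 21 metallothionein and glutathione genes 4 were higher and 1 lower, beside 1.05% of all genes called higher and 2.2% called lower, and after thinning 3 of 18 were higher, beside 20 of 8951. Of the basal keratinocyte markers 1 of 7 was higher by the same test (Itga6, an integrin of hemidesmosomes, by 0.50, edgeR adjusted p = 0.0466) with a list median of 0.21 beside 0.01 for all genes, and 2 of 7 higher after thinning with a median of 0.70. Their summed level was 1922 to 2525 CPM in RD and 1421 to 2107 CPM in HFD members, and 866 to 1354 CPM in RD and 559 to 1150 CPM in HFD Serpinb3a cells, and their part in the metallothionein values was not tested.

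Dnase1l3 moved the other way. The diet effect in members was below that in Serpinb3a cells by -1.04 ± 0.07 (edgeR adjusted p = 1.01e-06), and by -1.02 after thinning (edgeR adjusted p = 0.0114). It passed in 9 of 9 alternatives, with edgeR adjusted p up to 0.0114. Wfdc17, a secreted protein of the same family as Wfdc21, was lower by -1.05 ± 0.15 (edgeR adjusted p = 0.00190). Its call held in 9 of 9 alternatives, with edgeR adjusted p up to 0.0305. The keratin Krt2 was lower by -0.33 ± 0.05 (edgeR adjusted p = 0.00190), and it passed in 9 of 9 alternatives (edgeR adjusted p up to 0.0191). The cornified envelope gene Cnfn was also lower in every alternative. Ceramide and barrier lipid genes gave 10 lower calls of 22 (4 of 21 after thinning) and cholesterol genes 9 of 21 (1 of 21), beside 2.2% of all genes called lower, and 21 of 8951 after thinning. The squalene epoxidase Sqle was lower by -0.39 ± 0.05, and by -0.47 after thinning (edgeR adjusted p = 4.76e-04 and 0.0353). The very long chain elongase Elovl4 was lower by -0.26 ± 0.05, and by -0.33 after thinning (edgeR adjusted p = 0.00677 and 0.0134). The sphingomyelinase Smpd1 was lower by -0.55 ± 0.09, and by -0.86 after thinning (edgeR adjusted p = 0.00349 and 0.0380). These lists are higher in Serpinb3a cells, as described above. The glucosylceramide synthase Ugcg and the ceramide desaturase Degs1 were lower by -0.31 ± 0.06 and -0.24 ± 0.04 and held after thinning (edgeR adjusted p = 0.0393 and 0.0393), each passing in 8 of 9 alternatives. Late differentiation gave 5 lower of 18, desmosome genes 1 higher and 5 lower of 14, and neither list had a call after thinning. Early differentiation gave 1 higher and 4 lower of 14, and after thinning 2 of 14 were lower.

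**Figure D5:**
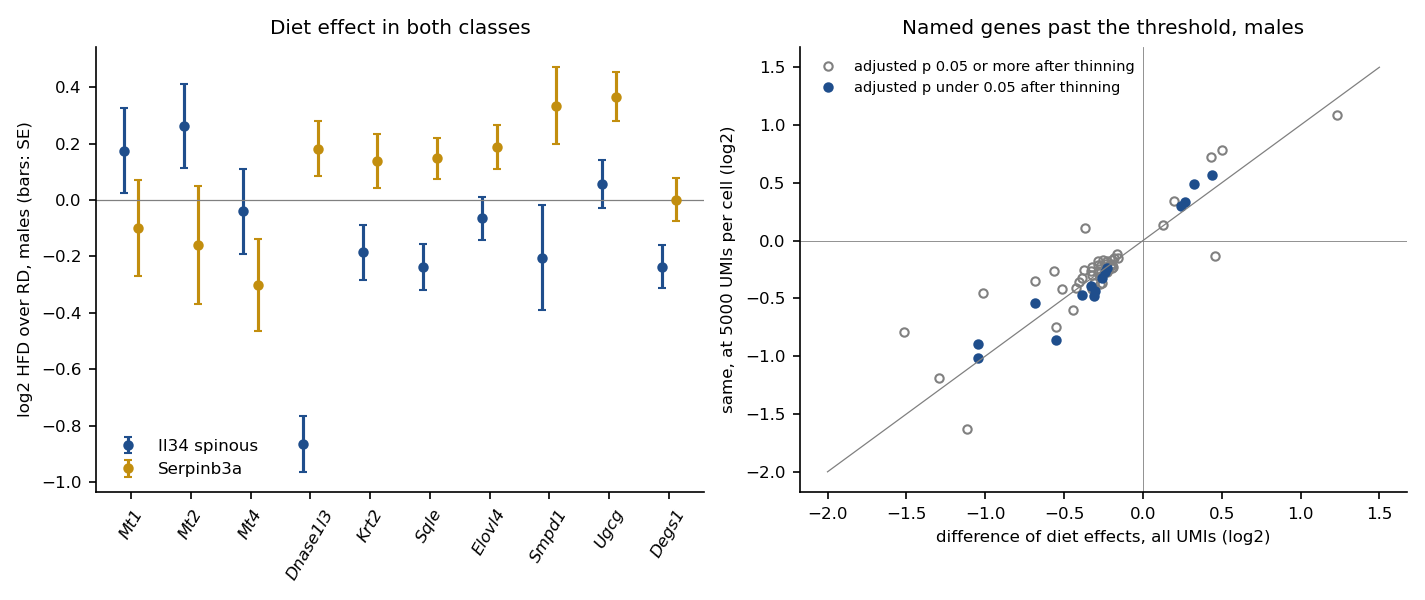
Left, log2 difference of HFD from RD with SE for 10 genes in male members and male Serpinb3a cells. Right, difference of the diet effect between both classes for 63 genes with all UMIs (x) and after thinning to 5000 UMIs per cell (y), where 61 kept their sign and 15 passed the threshold. The 63 were picked for passing with all UMIs.

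Against Serpinb3a cells in females 9 genes of 13101 (0.0687%) differed, 2 higher (0.0153%) and 7 lower (0.0534%) in members. After thinning 10 did, of which 3 were shared: Flg, Lor and Wfdc21. The differences for all UMIs were -1.70 ± 0.23 for Flg, -0.99 ± 0.15 for Lor and -1.32 ± 0.12 for Wfdc21 (edgeR adjusted p = 0.00428, 0.0119 and 7.67e-05). Flg stood at 43.9, 12.1 and 44.2 CPM on RD and 21.9, 6.74 and 6.49 CPM on HFD in members, and 1262, 629 and 1338 CPM on RD and 1566, 1261 and 873 CPM on HFD in the other cells. Within members the diets overlapped, with the lowest and the highest value at 12.1 and 44.2 CPM on RD. The count was 5 without RD replicate 3 and 16 without HFD replicate 2. Median depth of the Serpinb3a cells was 14566 to 19724.5 UMIs in RD and 19739 to 20967 UMIs in HFD females. Of the 7 lower genes 6 had a lower level in members than in Serpinb3a cells, as did 27.8% of all genes tested. Of the 2 higher genes 1 did.

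Against Il34-zero cells, the nearest class, 20 genes of 13089 (0.153%) differed in females, 9 higher (0.0688%) and 11 lower (0.084%), and 6 after thinning, 3 of them shared with the 20. Those 3 were S100a8 and S100a9, which together form calprotectin and rise in stressed epidermis, and Wfdc21. S100a8 stood at 22.4, 13.6 and 2.02 CPM on RD and 3.24, 5.69 and 3.32 CPM on HFD in members, and 12.4, 12.03 and 1.07 CPM on RD and 8.29, 14.5 and 20.9 CPM on HFD in the other cells, a difference of -2.33 ± 0.24 (edgeR adjusted p = 4.41e-05). RD replicate 3 was far below the other RD females in both classes. S100a9 differed by -2.51 ± 0.30 and Wfdc21 by -1.36 ± 0.16 (edgeR adjusted p = 1.25e-04 and 1.25e-04). S100a8, S100a9 and Wfdc21 passed in 9 of 9 alternatives each, with edgeR adjusted p up to 0.00981, 0.00394 and 0.00626. Mt4 passed with a small difference of 0.09 ± 0.01 (edgeR adjusted p = 0.00248), but at 0.01 after thinning it did not (edgeR adjusted p = 0.999).

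In males 1 gene of 11813 (0.00847%) differed between members and Il34-zero cells. Wfdc17 stood at 179, 109 and 89.1 CPM on RD and 90.3, 122 and 120.3 CPM on HFD in members, and 361, 278 and 206 CPM on RD and 340.5, 441 and 373 CPM on HFD in the other cells. The diets overlapped within each class, and the difference of the diet effect was -0.61 ± 0.08 (edgeR adjusted p = 0.00982). It did not pass after thinning, when no gene did (440 at an unadjusted p under 0.05). The count was 39 without RD replicate 2, 13 without HFD 3, 6 without HFD 1, 3 without HFD 2 and 0 without RD 1.

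Between the sexes 10006 of 13123 genes (76.2%) differed in members by edgeR, 4725 higher in males (36.0%) and 5281 higher in females (40.2%), 3543 of them past 2-fold. Because the matrices of each sex name another software version, no single difference can be assigned to sex. The acute phase gene Saa1 stood at 35.9, 16.1 and 41.7 CPM in RD males and 26.0, 36.7 and 34.2 CPM in HFD males, and in females it was at 0.0692 CPM in 1 RD mouse and 0 in the other 5. Its relative Saa2 and the ubiquitin-like Ubd were also higher in males. Gm14164, Tex14 and Gm11290 had 0 UMIs in the 6 males, and Gm14164 lay between 6.02 and 14.03 CPM in the 6 females.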

How the data were processed

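Epidermal cells of the hind paw of 12 mice were profiled, 1 droplet library per mouse. The submitters' processing notes name Cell Ranger 7.2.0 and Seurat 5.0.0, while the matrix headers give Cell Ranger 6.1.0 for males and 7.2.0 for females; whether intronic reads were counted is not given in the sources used here. The deposited values are raw UMI counts of 32285 genes per barcode, filtered to called cells by the authors, and no normalization was applied before deposit. No authors' cell annotation was used. The members and gene lists were chosen with earlier results of these data known, so that agreement with them is not independent support.

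Members were found by the rule given above in Python 3.11.15 (numpy 2.4.6, scipy 1.17.1, pandas 2.3.3, scikit-learn 1.9.0; figures with matplotlib 3.10.9), from cells with 500 to 6000 genes and at most 5% mitochondrial UMIs. Doublets were not removed. As an alternative the cells nearest to simulated doublets were left out (0.8% per 1000 barcodes, 30 neighbours, 30 components). UMIs were summed per mouse and class and tested with edgeR 4.0.16 in R 4.3.3 (quasi-likelihood, TMM scaling, filterByExpr, Benjamini-Hochberg threshold 0.05, limma 3.58.1). Genes of the rule were not tested in members. DESeq2 1.42.0 served as an alternative. The edgeR fits for diet and for the interaction were tested on simulated data, and the class fits were not. Shares of cells were compared by two-sided exact permutation tests of the means, and levels between classes were described as log2 ratios with 1 CPM added.

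The mouse was the replicate. Named genes were the markers and rule genes, list members past the threshold, the 10 called genes with the largest change whose groups did not overlap in each diet comparison (or the 5 with the smallest p where fewer than 3 passed), the genes of highest ratio between classes, the 10 of highest level, and 3 per direction between sexes outside the sex chromosomes; some genes that met this rule are not reported here. Of 32285 gene IDs 32158 (99.6%) matched the GENCODE vM21 annotation of GRCm38. Alternatives were another scaling, DESeq2, no filter on low counts, thinning each cell to 5000 or 10000 UMIs (shallower cells left out, 202 to 4979 per mouse at 5000), leaving out cells with Krt5 and Krt14 at 0.5% or more, a mitochondrial limit of 10%, and leaving out each mouse.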

Additional observations from a re-analysis of the deposited data

Results flagged for a closer look

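The diet effect on Slc27a3 in members differed between the sexes, by -1.66 on the log2 scale (male minus female, edgeR adjusted p = 0.0131). It was 1.38 in females and -0.27 in males, and the counting software differed with sex.

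The other results here are genes whose diet effect differed between members and a neighbouring class of the same mice (edgeR, adjusted p under 0.05, the class difference given as members minus the other class). Against Il34-zero spinous cells in males the difference was -0.61 for Wfdc17. In females it was -3.49 for Ccl6, -3.30 for Flg2, -2.51 for S100a9, -2.48 for Btc, -2.33 for S100a8, -1.78 for Fcgbp, -1.60 for Il18, -1.36 for Wfdc21, -0.77 for Lor, 0.49 for Wfdc18 and 0.0941 for Mt4. Against Serpinb3a cells in males it was -3.15 for Sema7a, -2.32 for S100a9, -1.52 for Aox4, -1.29 for Rnase2b, 1.23 for Rnaset2a, -1.11 for Slc34a2, -1.10 for Cpe, -1.05 for Wfdc17, -1.04 for Dnase1l3 and -1.01 for Ly6m. Among the list genes described for that comparison it was 0.44 for Mt2, 0.27 for Mt1, 0.24 for Mt4, -0.55 for Smpd1, -0.51 for Il1rn, -0.41 for Prdm1, -0.39 for Sqle, -0.33 for Krt2, -0.32 for Cebpb, -0.31 for Ugcg, -0.26 for Elovl4, -0.24 for Degs1, -0.22 for Grhl1 and -0.20 for Klf4. For Cnfn and Itga6, also described there, the difference was -0.69 and 0.50. In females it was -3.30 for Btc, -2.93 for Ccl6, -1.70 for Flg, 1.59 for Tchh, -1.32 for Wfdc21, -1.15 for Gm47128, -0.99 for Lor, -0.90 for Krt15 and 0.41 for Tnfaip3. Several rested on few UMIs in members: in the mice of the comparison Flg2 had 2 to 30 UMIs per mouse, Sema7a 1 to 12, Ccl6 1 to 15 and Btc 4 to 76, the highest in RD replicate 3. Without that mouse Btc and Il18 did not pass against Il34-zero cells (edgeR adjusted p = 0.908 and 0.821), nor did Btc against Serpinb3a cells (edgeR adjusted p = 0.445). S100a9 held 453, 412 and 40 UMIs in RD females, the lowest in RD replicate 3. After thinning to 5000 UMIs, Wfdc17, Dnase1l3, Mt1, Mt2, Mt4, Krt2, Cnfn, Sqle, Elovl4, Smpd1, Ugcg and Degs1 against Serpinb3a cells in males, S100a8, S100a9 and Wfdc21 against Il34-zero cells in females, and Flg, Lor and Wfdc21 against Serpinb3a cells in females still passed. The others did not, or were too low to be tested, and Wfdc18 was then at 0.03. With a mouse left out Rnaset2a, Slc34a2, Prdm1, Gm47128 and Tnfaip3 each passed in 1 of 6 fits.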

How the results depend on the processing

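Under the alternatives listed for the processing, the genes named by the rule kept their direction in all but 2 of 1390 values recomputed: 987 stayed on their side of the threshold, 42 passed only in the alternative and 359 only in the reported fit. The exceptions were in males against Serpinb3a cells after thinning, where Krt78 turned from -0.37 to 0.11 (edgeR adjusted p = 0.852) and Cst6 from 0.46 to -0.13 (edgeR adjusted p = 0.585). The genes were picked in the reported fits and the alternatives reuse the same mice, so agreement in sign is not independent. Member shares by diet in males moved from 0.911 to -1.33 percentage points at 5000 UMIs (0.0324 to 1.78 with a mouse left out). In females the difference of 0.436 points became -0.673 at 5000 and -0.373 at 10000 UMIs (-0.735 to 1.1997 with a mouse left out, -0.735 without RD replicate 2). With at least 2 Il34 UMIs required the differences were 1.04 points in males and 0.990 in females. Among cells with Krt1 and Krt10 at 1% of UMIs or more they were 1.62 and 5.13 points. The share by sex stayed between -4.67 and -3.81 points with a mouse left out. Male diet calls were 14 by DESeq2, 123 without the filter on low counts, 0 after thinning (483 at an unadjusted p under 0.05), 2 without cells high in Krt5 and Krt14, and 0 to 11 with a mouse left out. Female diet calls were 448 by DESeq2, 877 without the filter, 27 after thinning and 0 to 688 with a mouse left out. Interaction calls were 3 with size factors, 98 by DESeq2, 318 without the filter, 0 without cells high in Krt5 and Krt14 (1535 at an unadjusted p under 0.05), 0 without likely doublets (1475), 2 at the 10% mitochondrial limit and 0 to 148 with a mouse left out. Class by diet calls without the filter were 93 (Il34-zero, males), 93 (Il34-zero, females), 653 (Serpinb3a, males) and 92 (Serpinb3a, females). After thinning, an alternative chosen after seeing the data, the first 3 were 0, 6 and 41. With a mouse left out the 4 ranged over 0 to 39, 14 to 28, 92 to 419 and 5 to 16. Why single mice moved the counts was not tested. Where a range of adjusted p over alternatives is printed, its lowest value lay below every fit with a mouse left out. For the interaction on Slc27a3 these were 1.86e-15 and 0.00139 (edgeR or DESeq2 adjusted p). With 3 mice per group the exact tests of shares cannot go below 0.1 within a sex, and thinned sums hold fewer cells and fewer genes tested.

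Replicate numbers share no stated litter or day, and same-numbered mice did not deviate together throughout (correlations of deviations -0.074 to 0.105 in males, -0.004 to 0.161 in females). With the replicate block male diet calls were 0 (731 at an unadjusted p under 0.05), female diet calls 223 and interaction calls 10.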

Other observations

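Of 24 differentiation factors and Notch genes, 4 had a lower diet effect in male members than in male Serpinb3a cells and 20 did not pass, with a list median of -0.06, beside 2.2% of all genes called lower. The 4 were Klf4, which drives barrier formation, Grhl1, a regulator of desmosomal cadherins, Cebpb and Prdm1. Cebpb promotes exit from the basal state, and Prdm1 is a transcriptional repressor. Klf4 differed by -0.20 ± 0.05 (edgeR adjusted p = 0.0220, 2.72e-06 to 0.158 over 9 alternatives). Grhl1 differed by -0.22 ± 0.05 (edgeR adjusted p = 0.0199, 0.00309 to 0.452 over 9 alternatives). For Cebpb it was -0.32 ± 0.04 (edgeR adjusted p = 5.25e-04, 3.13e-11 to 0.203 over 9 alternatives). For Prdm1 it was -0.41 ± 0.10 (edgeR adjusted p = 0.0422, 1.65e-05 to 0.556 over 9 alternatives). After thinning to 5000 UMIs the 4 genes, in this order, differed by -0.21, -0.26, -0.23 and -0.36, and none of the 4 passed.

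The interleukin 1 receptor antagonist Il1rn, which did not pass the diet test within male members, differed from its effect in Serpinb3a cells by -0.51 ± 0.09 (edgeR adjusted p = 0.00528), and by -0.42 after thinning (edgeR adjusted p = 0.381, the highest of 9 alternatives, 7 of which passed).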
